A study of Mus musculus with 6 samples.

Results

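Myosin light chain genes were followed from resting to regenerating skeletal muscle: Myl1, Myl2, Myl3, Myl4, Myl6, Myl6b, Myl9, Myl12a, Myl12b and Mylpf. They were chosen by name as the main striated, smooth muscle and non-muscle isoforms, 10 of the 26431 gene symbols in the deposited table. RNA was sequenced from the tibialis anterior (TA), a fast muscle of the lower leg, of C57BL/6 mice that the labels of all 6 samples give as female, whereas the general methods of the study name male mice unless stated otherwise. One group of 3 mice was uninjured and untreated. In the other group of 3 mice the muscle had received about 50 µl of 10 µM cardiotoxin (CTX), a snake venom toxin from Naja mossambica mossambica that destroys myofibres and sets off regeneration, and was taken at day 3. Mice of both groups were 8 to 10 weeks old. The labels name no allele or transgene and describe no mock injection.

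A myosin molecule has 2 heavy chains, and the neck of each heavy chain binds 1 essential and 1 regulatory light chain. The essential chain stiffens the lever arm. The regulatory chain can be phosphorylated, which starts contraction in smooth muscle and non-muscle cells and tunes force in striated muscle. Adult fast fibres use Myl1 (essential) and Mylpf (regulatory), slow fibres and the heart ventricle use Myl3 and Myl2, and Myl4 is the essential chain of embryonic muscle and the heart atrium. Myl6 is the common essential chain of smooth muscle and non-muscle cells, Myl9 the regulatory chain of smooth muscle, and Myl12a and Myl12b are regulatory chains of non-muscle myosin. Myl6b is an essential chain whose human counterpart was described in slow muscle and in non-muscle tissue.

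Sequence similarity within the family sets how well short reads can tell its members apart, so stretches of Myl12a, Myl12b and Myl1 are shown first as examples. Myl12a and Myl12b were identical at 501 of 519 coding bases (96.5%). Over the first 90 coding bases of both genes on chromosome 17 they differed at only the 4 bases in capitals.
Myl12a: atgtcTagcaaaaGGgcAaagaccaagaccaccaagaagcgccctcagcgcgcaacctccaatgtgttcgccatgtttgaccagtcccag
Myl12b: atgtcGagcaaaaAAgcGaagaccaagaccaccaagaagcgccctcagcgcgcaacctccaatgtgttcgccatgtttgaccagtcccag
Windows of 50 bases, the read length, were compared between transcripts of the GENCODE annotation. Of those in the matched Myl12a transcript, 29.2% also occurred in any annotated transcript of Myl12b. Of those in the matched Myl12b transcript, 9.17% occurred in any of Myl12a. The Myl12b transcript compared had 2143 bases, beside 939 in the deposited table. These percentages therefore need not hold for the sequences that the reads were aligned to. Myl9 stood further off, with 86.3% identity to Myl12b and 85.5% to Myl12a, and shared no such window with any other gene. The next closest pairs were Myl6 with Myl6b (78.7%), Myl3 with Myl4 (78.1%) and Myl1 with Myl4 (76.2%).

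Myl1 makes a short and a long protein from separate first exons. The 150-codon transcript has 27 coding bases of its own and the 188-codon transcript 141, and both then run through the same 426 coding bases. The join is shown with the bases particular to each transcript in capitals, all of them for the short form and the last 60 for the long form, and 30 shared bases in lower case.
Myl1 of 150 codons: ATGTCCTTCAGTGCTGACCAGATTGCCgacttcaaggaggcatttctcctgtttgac
Myl1 of 188 codons: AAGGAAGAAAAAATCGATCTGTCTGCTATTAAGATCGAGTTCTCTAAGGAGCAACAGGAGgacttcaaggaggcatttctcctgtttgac
Of the 50-base windows, 86.3% of those in the short transcript and 63.0% of those in the long one occurred in the other, and 242 windows occurred in a processed copy named Mylf-ps. The 150-codon transcript had the higher mean and stands for Myl1 below.

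In the GENCODE M21 annotation of GRCm38 the transcripts matched to the used ones lay at chr1:66924298-66935354 (Myl1, minus strand, 7 exons), chr5:122100951-122106854 (Myl2, plus, 7 exons), chr9:110763646-110769798 (Myl3, plus, 7 exons) and chr11:104550663-104587215 (Myl4, plus, 9 exons). Myl6 and Myl6b were neighbours on the minus strand at chr10:128490860-128493875 and chr10:128494157-128498685. Myl12b and Myl12a were likewise neighbours on the minus strand at chr17:70973133-70990890 and chr17:70993656-71002554. Myl9 lay at chr2:156775420-156781658 and Mylpf at chr7:127211608-127214298, both on the plus strand.

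Libraries held 38737746 to 43062684 mapped reads in the uninjured and 34202861 to 36129090 in the day 3 group, and a single read in a transcript of 1 kb was worth 0.0232 to 0.0292 RPKM (reads per kilobase of transcript, scaled to the mapped reads of the library). The fast fibre genes expected in this muscle were present, with Ckm, the muscle creatine kinase, at a mean of 9271 RPKM in uninjured muscle. Replicate 3 of day 3 stood apart for muscle fibre genes, and values without it are given beside the results that changed most. The labels do not name litters or days, and the p-values measure the spread between these mice. Fewer cells of a type and less RNA per cell cannot be told apart in whole muscle.

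At day 3 the fast and slow chains of adult fibres fell, the embryonic chain Myl4 rose 24.4-fold, and the non-muscle essential chain Myl6 rose 7.25-fold (ratios of mean RPKM, n = 3 per group). A gene was called when limma on log2(RPKM + 0.1) gave a Benjamini-Hochberg adjusted p under 0.05 over the 14446 genes tested and a change of at least 2-fold. All 10 members passed the filter on low values. By this rule 5 members were higher (Myl4, Myl6, Myl6b, Myl12a and Myl12b), 4 were lower (Myl1, Myl2, Myl3 and Mylpf), and Myl9 was not called. Among all tested genes 60.5% were called higher and 7.96% lower. The members' median log2 change was 0.96, beside 1.35 for all tested genes. Their share of higher calls was close to the background, and the 4 lower calls were all striated chains. For every member the 3 uninjured and the 3 day 3 values did not overlap. How many of all tested genes share this was not counted, so it cannot be read as particular to the members. By a different measure, 13336 of the 14446 genes had a limma p under 0.05 before adjustment.

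The shift of the median gene, 1.35 as deposited, depended on how the libraries were scaled. It was 0.94 with scaling to the ERCC spike-ins, 0.026 with scaling by the median ratio of each gene to its geometric mean (median-ratio scaling below), -0.074 after quantile normalization and -0.73 with scaling to the summed ribosomal protein genes (ribosomal-gene scaling). With the median gene set to 0, the log2 change on the deposited scale was 3.18 for Myl4, 1.51 for Myl6, 1.05 for Myl6b, 0.74 for Myl12b, -0.097 for Myl12a and -0.68 for Myl9. It was -3.84 for Mylpf, -3.97 for Myl2, -4.43 for Myl1 and -5.87 for Myl3.

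**Figure D1:**
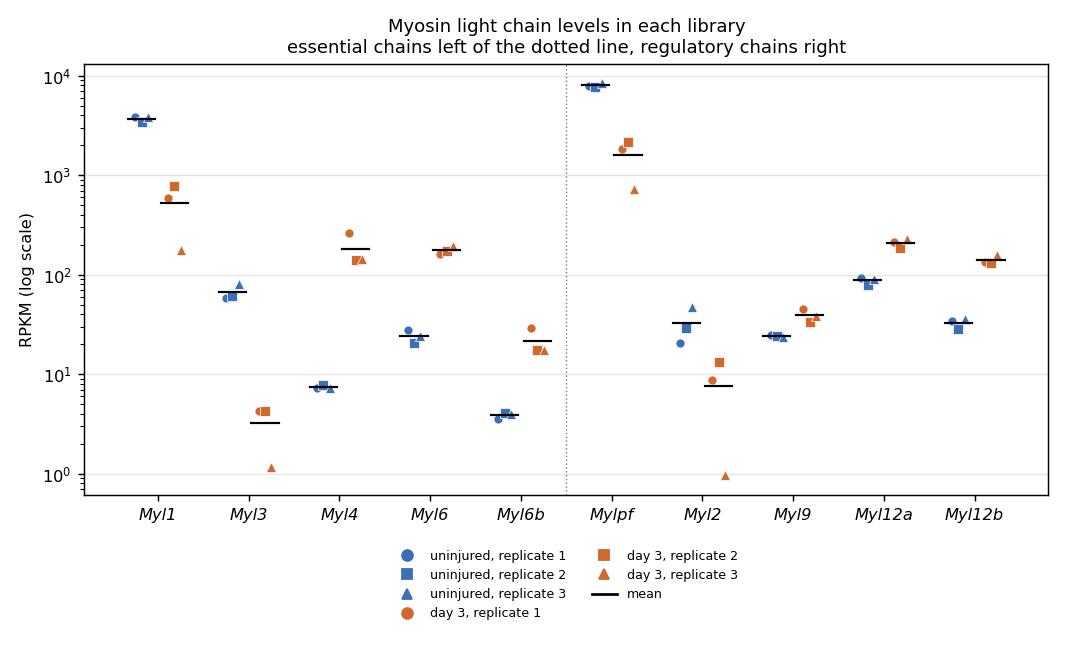
RPKM of each light chain (log axis) in the 3 uninjured (blue) and 3 day 3 libraries (orange), with marker shapes for replicates and black bars for means. Myl1, Myl3, Mylpf and Myl2 lie lower at day 3 with replicate 3 lowest, and Myl4 rises from a mean of 7.44 to 182 RPKM; Myl9, Myl12a and Myl12b are higher as deposited but reverse under 1 or more other scalings.

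Mylpf, the fast regulatory chain, was the most abundant member in both groups. It read 7958, 7750.3 and 8377 RPKM in uninjured replicates 1 to 3 and 1849, 2163 and 728 RPKM in the day 3 libraries. Replicate 3 of day 3 held less than the other day 3 libraries by a factor of at least 2.54, and the lowest uninjured library stood far above every day 3 library. The mean fell 5.08-fold, from 8029 ± 319 to 1580.1 ± 755 RPKM (SD, n = 3), with a log2 change of -2.49 (SE 0.40, limma adjusted p = 5.98e-04). Without day 3 replicate 3 the log2 change was -2.0 and still called. The call was lost after quantile normalization, at -0.94 (limma adjusted p = 0.172), and when genes of low level were kept in the fit (limma adjusted p = 0.0561).

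Myl1, its essential partner in fast fibres, read 3819, 3387 and 3862 RPKM in uninjured muscle and 593, 788 and 178 RPKM at day 3. The day 3 libraries kept the same order as for Mylpf, with replicate 2 highest and replicate 3 lowest. The mean fell 7.10-fold, from 3689 ± 263 to 519.6 ± 311 RPKM (SD, n = 3), a log2 change of -3.08 (SE 0.51, limma adjusted p = 7.29e-04). Without day 3 replicate 3 it was -2.43. The call held in all 18 alternatives, between -5.24 and -2.43. The 2 transcripts of Myl1 kept nearly the same ratio, short over long, in all libraries, from 1.09 to 1.18, with how reads from their shared bases were assigned not given in the sources used here.

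Myl3, the slow essential chain, had the largest fall of the family. It read 58.4, 61.4 and 81.1 RPKM in uninjured muscle and 4.27, 4.26 and 1.17 RPKM at day 3. Uninjured replicate 3 was the highest of its group and day 3 replicate 3 the lowest of all, resting on 38 reads. The mean fell 20.7-fold, from 66.98 ± 12.3 to 3.23 ± 1.79 RPKM (SD, n = 3), a log2 change of -4.52 (SE 0.47, limma adjusted p = 4.73e-05). It was -3.93 without day 3 replicate 3 and was called in all 18 alternatives.

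Myl2, the slow regulatory chain, read 20.8, 29.3 and 47.1 RPKM in uninjured muscle and 8.68, 13.2 and 0.962 RPKM at day 3. It was the least even member, with a coefficient of variation of 41.4% among uninjured and 81.2% among day 3 libraries, and its lowest value rested on 22 reads. The mean fell 4.26-fold, from 32.4 ± 13.4 to 7.60 ± 6.17 RPKM (SD, n = 3), and the log2 change of -2.62 had a wide 95% interval of -4.76 to -0.49 (limma adjusted p = 0.0252). The call was lost without uninjured replicate 2 (-2.66, limma adjusted p = 0.0558), without uninjured replicate 3 (-2.31, limma adjusted p = 0.0735) and with genes of low level kept in the fit (limma adjusted p = 0.102). Without day 3 replicate 3 the log2 change shrank to -1.51 and was still called.

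The slow light chains fell while the slow troponins rose. Of 8 other genes of slow fibres or shared with them, 6 rose and 2 fell, beside 60.5% and 7.96% of all tested genes. The list had a median log2 change of 3.26, beside 1.35 for all tested genes. Without day 3 replicate 3, Myoz2, 1 of the 2 that fell, was not called (-0.87). Tnni1, the slow troponin I, read 1.56, 2.07 and 3.92 RPKM in uninjured muscle and 102, 53.7 and 57.4 RPKM at day 3, a log2 change of 4.80 and the largest rise of the list. Mybpc1, the slow myosin-binding protein C and the most abundant gene of the list, fell from 365 ± 47.5 to 64.3 ± 42.4 RPKM (SD, n = 3; log2 change -2.86). Myh7, the slow heavy chain, read 3.56, 4.59 and 9.30 RPKM in uninjured muscle and 3.06, 2.77 and 0.503 RPKM at day 3. Its fall of 1.63 on the log2 scale lay close to the threshold (limma adjusted p = 0.0498), and without day 3 replicate 3 it was -0.86 and not called (limma adjusted p = 0.0693). In the uninjured group replicate 3 was highest and replicate 1 lowest for Myl2, Myl3, Myh7, Tnni1, Tnnt1 (8.53, 10.1 and 18.96 RPKM) and Tnnc1 (5.45, 7.27 and 14.0 RPKM). The rest of the list did not keep this order. Atp2a2 and Tpm3 were highest in replicate 3 but lowest in replicate 2. Mybpc1 (354, 417 and 324 RPKM), Casq2 and Myoz2 were highest in replicate 2 and lowest in replicate 3. At day 3 the order was different for the troponins, which were highest in replicate 1, while Myl2, Myl3 and Myh7 were lowest in replicate 3.

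**Figure D2:**
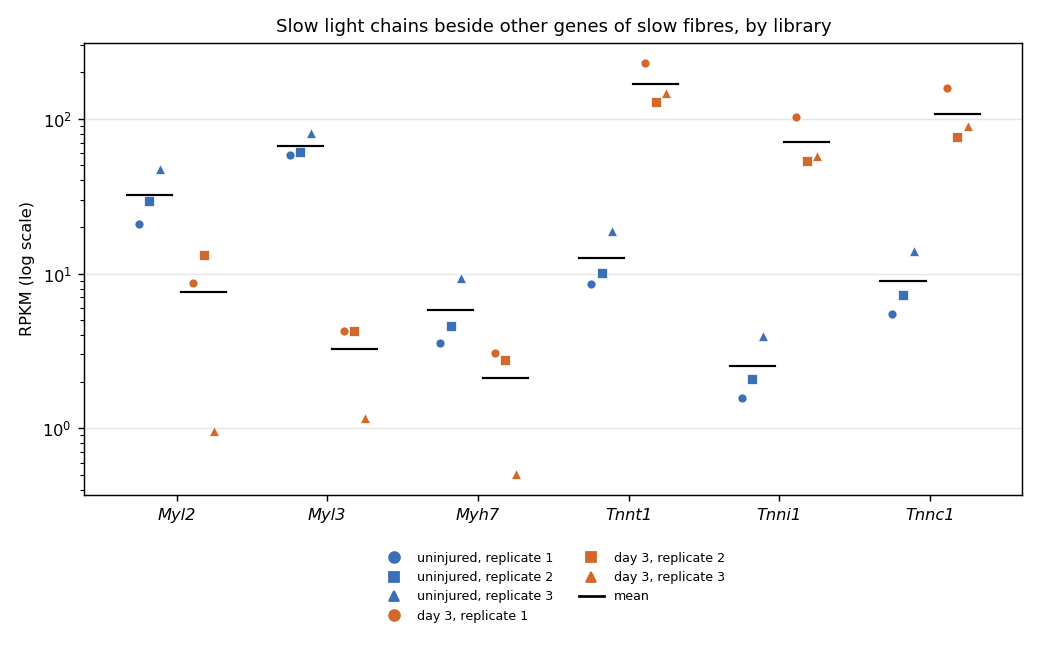
RPKM (log axis) of the slow light chains Myl2 and Myl3, the slow heavy chain Myh7 and the slow troponins Tnnt1, Tnni1 and Tnnc1 in each library, uninjured in blue and day 3 in orange, with bars for means. The myosin genes lie lower at day 3 and the troponins higher. Uninjured replicate 3 (triangle) is the highest of its group for all 6 genes, but not for Mybpc1, Casq2 and Myoz2, which are not shown.

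Myl4, the embryonic and atrial essential chain, had the largest rise of the family. It read 7.26, 7.82 and 7.25 RPKM in uninjured muscle, where the 3 libraries lay within a coefficient of variation of 4.37%, and 262, 141 and 143 RPKM at day 3. Replicate 1 of day 3 was the highest, and every day 3 library stood far above every uninjured one. The mean rose from 7.44 ± 0.326 to 182 ± 69.1 RPKM (SD, n = 3), a log2 change of 4.53 (SE 0.23, limma adjusted p = 9.52e-07). It was called higher in all 18 alternatives, between 2.38 and 4.68. Against Myl1, Myl4 went from a ratio of 0.00203 ± 0.000243 to 0.474 ± 0.313 (SD, n = 3), with 0.441, 0.179 and 0.802 in day 3 replicates 1 to 3.

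The immature muscle genes rose beside it. Of 10 such genes 9 were called higher and none lower, beside 60.5% and 7.96% of all tested genes. The median log2 change was 5.23, beside 1.35 for all tested genes. The list includes Gm7325 (Minion), which the study picked out by its strong rise at day 3 over uninjured muscle in this experiment. Its call was therefore known in advance, and it enters both the count and the median. Tmem8c (Myomaker), a membrane protein needed for myoblast fusion, rose by 9.04 on the log2 scale, the largest rise of the list. It read 0.0169, 0.01 and 0.0939 RPKM in uninjured muscle and 93.7, 57.4 and 66.9 RPKM at day 3. The uninjured values lay below the 0.1 RPKM added before the log, so the size of this rise depends on that setting. Actc1, the cardiac actin that embryonic skeletal muscle also uses and the most abundant gene of the list, went from 267 ± 77.9 to 417 ± 160 RPKM (SD, n = 3) and was not called (log2 change 0.62, limma adjusted p = 0.0862). Atrial muscle genes were few and low: of 6 listed, Nppa and Bmp10 did not pass the filter on low values, Myl7, the atrial regulatory chain, was listed at 0.01 RPKM, the lowest value in the table, in all 6 libraries, and the list summed to 4.61 to 5.19 RPKM in uninjured and 3.80 to 8.82 RPKM in day 3 libraries. Of the 3 tested, Gja5, a gap junction protein, and Sln, a regulator of the calcium pump, rose by 1.56 and 1.30, but neither kept its call after quantile normalization or with median-ratio or ribosomal-gene scaling, and Myh6 fell by 2.60. Myl10, the other light chain gene outside the members, fell by 2.95 (2.99 ± 0.126 to 0.367 ± 0.261 RPKM; SD, n = 3).

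Myl6, the smooth muscle and non-muscle essential chain, read 27.9, 20.6 and 24.2 RPKM in uninjured muscle and 163, 171 and 193 RPKM at day 3. The day 3 libraries lay close together, and replicate 3, the lowest for the adult fibre chains, was the highest for Myl6. The mean rose from 24.2 ± 3.65 to 176 ± 15.3 RPKM (SD, n = 3), a log2 change of 2.86 (SE 0.12, limma adjusted p = 4.27e-07), and with ribosomal-gene scaling it was 0.70 and not called. Of its 50-base windows 53.2% occurred in other genes, mostly processed copies, so its own level is uncertain. The 3 copies in the table carried similar changes: Gm10080 went from 12.9 to 94.5 RPKM (log2 change 2.86), Gm5526 from 16.0 to 105 (2.71) and Gm8894 from 13.8 to 87.5 (2.66). Myl6 and these copies together held 67.0 ± 5.81 RPKM before and 463 ± 24.9 RPKM after injury (SD, n = 3), and the log2 change of this sum was 2.79.

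Myl6b, its neighbour on chromosome 10, was the scarcest member in uninjured muscle. It read 3.51, 4.04 and 4.03 RPKM there and 29.2, 17.6 and 17.4 RPKM at day 3. Replicate 1 of day 3 was the highest, as for Myl4 and not as for Myl6. The mean rose 5.54-fold, from 3.86 ± 0.302 to 21.4 ± 6.73 RPKM (SD, n = 3), a log2 change of 2.40 (SE 0.20, limma adjusted p = 1.35e-05), and with ribosomal-gene scaling it was 0.26 and not called.

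Myl12b, a non-muscle regulatory chain, read 34.3, 28.6 and 35.5 RPKM in uninjured muscle and 135, 129.8 and 156 RPKM at day 3. Replicate 2 was the lowest of each group. The mean rose 4.28-fold as deposited, from 32.8 ± 3.66 to 140.2 ± 14.1 RPKM (SD, n = 3), a log2 change of 2.09 (SE 0.11, limma adjusted p = 1.10e-06) that was 0.74 and not called with median-ratio scaling and turned to -0.066 with ribosomal-gene scaling. Myl12a, the gene beside it, read 93.3, 79.5 and 90.3 RPKM in uninjured muscle and 215, 185 and 229 RPKM at day 3, the same order of libraries within day 3. Its mean rose 2.39-fold as deposited, from 87.7 ± 7.24 to 209.7 ± 22.5 RPKM (SD, n = 3), a log2 change of 1.25 (SE 0.11, limma adjusted p = 1.46e-05) that became -0.13 with median-ratio and -0.91 with ribosomal-gene scaling. With ERCC scaling (0.83) and after quantile normalization (0.61) it stayed positive but short of 2-fold. The ratio of Myl12a to Myl12b on the deposited values, which no scaling by 1 factor per library moves, went from 2.68 ± 0.123 to 1.50 ± 0.0871 (SD, n = 3), and the libraries of the 2 groups did not overlap in it. How reads from windows common to both genes were divided is not given in the sources used here.

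Myl9, the smooth muscle regulatory chain, read 24.7, 24.4 and 23.9 RPKM in uninjured muscle, the most even values of any member with a coefficient of variation of 1.74%, and 45.6, 33.7 and 38.1 RPKM at day 3. Every day 3 library was above every uninjured one as deposited. The means were 24.3 ± 0.422 and 39.1 ± 6.00 RPKM (SD, n = 3), which is a log2 difference of 0.67 (95% interval 0.41 to 0.93, limma adjusted p = 6.52e-04). This lay short of a 2-fold change, and the sign was negative with median-ratio (-0.71), quantile (-0.23) and ribosomal-gene scaling (-1.49, where it was called lower).

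**Figure D3:**
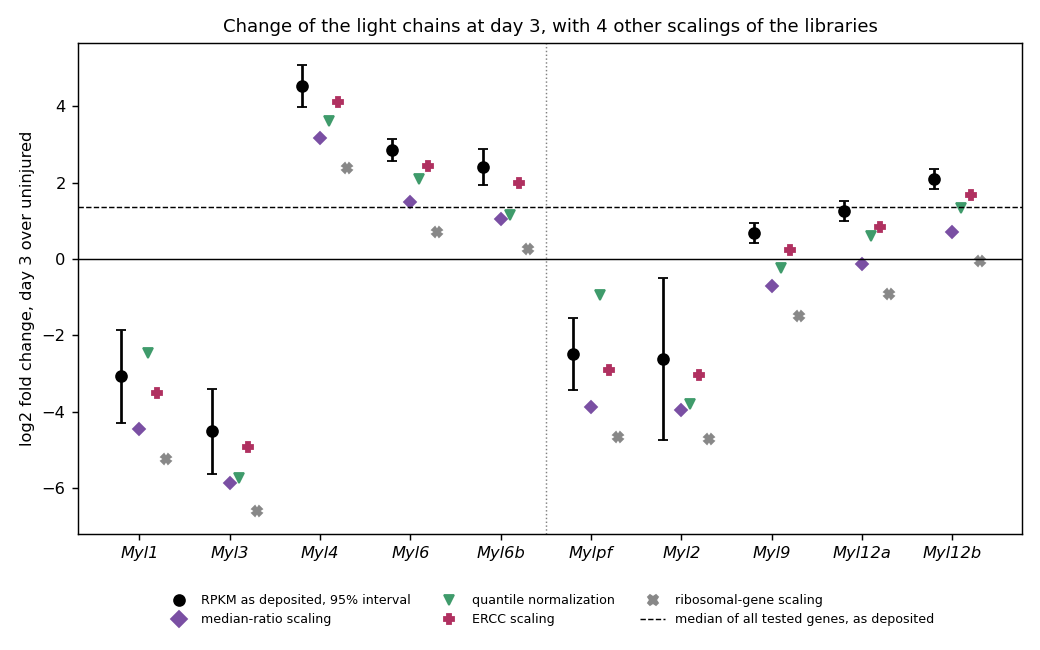
Log2 fold change of each light chain, day 3 over uninjured, on the deposited RPKM (black, with 95% intervals from limma) and with 4 other scalings of the libraries (coloured markers). The dashed line is the median of all tested genes as deposited, 1.35. Myl4, Myl6 and Myl6b stay above 0 and Myl1, Myl3, Mylpf and Myl2 below it with each scaling, while Myl9, Myl12a and Myl12b cross it under 3, 2 and 1 of the 4.

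As deposited, macrophage and fibroblast markers rose as the non-muscle chains did, while smooth muscle markers were mixed and endothelial markers were not called. The part of these cells in the light chain changes was not tested. All 10 macrophage and monocyte genes rose, their summed level going from 29.8 to 45.1 RPKM across uninjured libraries to 4439 to 6159 RPKM across day 3 libraries, led by Lyz2, a lysozyme. Of 8 fibroblast genes 7 rose (summed 234 to 368 against 2332 to 2573 RPKM). Of 12 smooth muscle and pericyte genes 7 were called higher as deposited (summed 146 to 149.6 against 252 to 372 RPKM). Among all tested genes 60.5% were called higher. The median log2 change was 1.26 for the smooth muscle and pericyte list, beside 1.35 for all tested genes. Only 1 of these 12 genes was called higher with median-ratio and with quantile scaling, where 2 and 4 were lower. Their most abundant gene and largest rise was Acta2, the smooth muscle actin (17.1 ± 0.845 to 148 ± 48.1 RPKM; SD, n = 3), while the smooth muscle heavy chain Myh11 went from 3.86 ± 0.396 to 2.16 ± 0.25 RPKM (SD, n = 3; log2 change -0.81, not called). None of 8 endothelial genes was called as deposited (summed 87.4 to 100.1 against 109.7 to 116 RPKM), while 4 were called lower with median-ratio, 3 with quantile, 1 with ERCC and all 8 with ribosomal-gene scaling.

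Replicate 3 of day 3 divided the family. Set against the mean of the other day 3 libraries on the log2 scale, it differed by -3.35 for Myl2, -1.94 for Myl1, -1.78 for Myl3 and -1.46 for Mylpf. The difference was -0.42 for Myl4, -0.38 for Myl6b and -0.041 for Myl9, and 0.24, 0.21 and 0.20 for Myl12b, Myl6 and Myl12a. The median difference of the fast fibre genes was -2.21, of striated heavy chains -1.67, of immature muscle genes -0.086 and of macrophage genes 0.35. Replicate 1 of day 3 was higher than the mean of the others by 0.88 for Myl4 and 0.73 for Myl6b.

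Striated chains made up a smaller share of the light chain RNA in every day 3 library than in any uninjured one. Multiplying a library by a factor does not move shares within it, whereas quantile normalization can, and shares were computed on the deposited values only. Striated chains (Myl1, Myl3 and Myl4) held 99.2%, 99.3% and 99.3% of essential chain RPKM in uninjured muscle and 81.7%, 83.2% and 60.5% at day 3. The means were 99.3% ± 0.0543 and 75.1% ± 12.7 (SD, n = 3; exact two-sided permutation p = 0.10, the smallest that 3 against 3 allows, and 0.167 adjusted over 5 comparisons). Striated regulatory chains (Mylpf and Myl2) held 98.1%, 98.3% and 98.3% in uninjured muscle and 82.5%, 86.2% and 63.2% at day 3, with means of 98.2% ± 0.10 and 77.3% ± 12.3 (SD, n = 3; exact two-sided permutation p = 0.10, adjusted 0.167). In both classes the groups did not overlap and day 3 replicate 3 was the lowest. Without it the differences were -16.8 points for essential and -13.9 points for regulatory chains, in place of -24.1 and -20.9.

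Among essential chains Myl1 went from 97.3% to 53.4%, Myl4 from 0.197% to 21.4%, Myl6 from 0.638% to 22.3%, Myl6b from 0.102% to 2.54% and Myl3 from 1.77% to 0.335% (means, n = 3). Among regulatory chains Mylpf went from 97.8% to 76.97%, Myl12a from 1.07% to 12.3%, Myl12b from 0.399% to 8.23% and Myl9 from 0.297% to 2.22%. Myl2 held 0.392% ± 0.148 and 0.330% ± 0.224 (SD, n = 3), within the spread. Without day 3 replicate 3 the day 3 means were 63.3% for Myl1, 18.7% for Myl4 and 15.4% for Myl6, and on the regulatory side 83.9% for Mylpf, 8.43% for Myl12a, 5.56% for Myl12b and 0.453% for Myl2, which then lay above its uninjured mean. An embryonic striated chain thus made up part of the day 3 total on the essential side, whereas the regulatory list holds no embryonic striated gene. With the 3 near copies counted into Myl6, a choice made after the values were seen, the striated share of essential chains at day 3 was 56.6% in place of 75.1%.

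**Figure D4:**
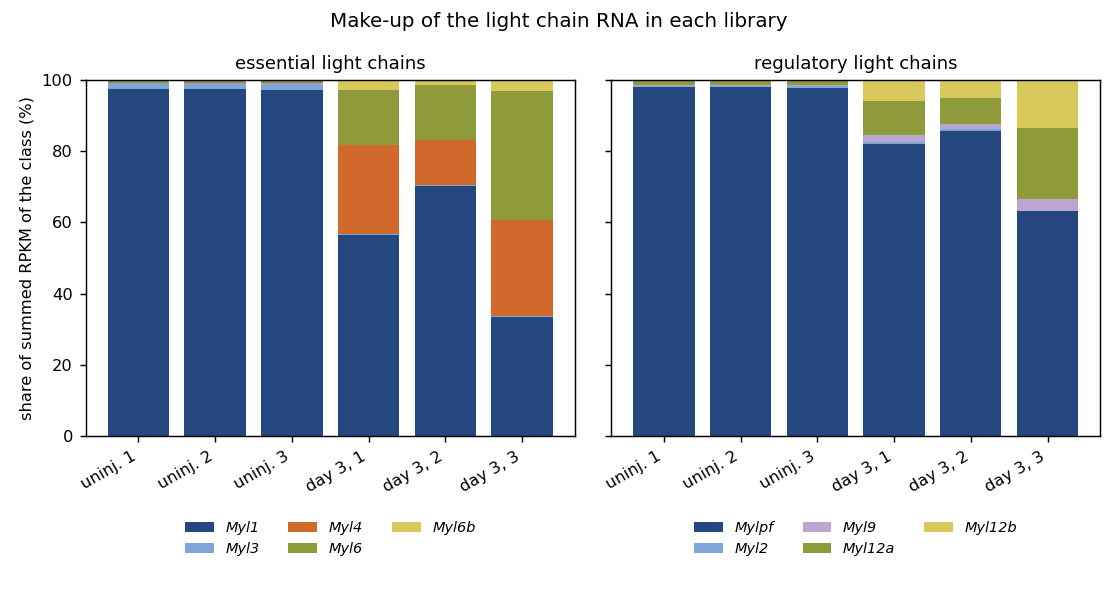
Share of each gene in the summed RPKM of the essential (left) and the regulatory light chains (right), one bar per library. Myl1 and Mylpf fill nearly the whole bar in the uninjured libraries, and at day 3 Myl4 and Myl6 take shares of the essential bar and Myl12a and Myl12b of the regulatory bar, most in replicate 3.

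Essential and regulatory chains as a whole differed in their ratio by less than the spread between libraries. Their ratio of summed RPKM was 0.462 ± 0.0210 before and 0.458 ± 0.0119 after injury (SD, n = 3; exact two-sided permutation p = 0.9). Among striated members it was 0.467 ± 0.0214 and 0.444 ± 0.0169 (exact two-sided permutation p = 0.2, adjusted 0.25). These ratios depended on which Myl1 transcripts were counted: with both summed, the ratio over all members went from 0.849 to 0.677, and the striated ratio from 0.861 to 0.723. With the near copies counted into Myl6 the ratio rose instead, from 0.467 to 0.623.

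Striated light chain RNA was higher relative to striated heavy chain RNA in every day 3 library than in any uninjured one. Of the 9 striated heavy chain genes 7 fell, or 6 without day 3 replicate 3, and 1 rose (median log2 change -2.78). Among all tested genes 7.96% were called lower and 60.5% higher. Myh4, the heavy chain of the fastest fibres and the most abundant, fell from 6439 ± 717 to 567 ± 437 RPKM (SD, n = 3; log2 change -3.99, the largest fall, and -3.05 without day 3 replicate 3). Myh3, the embryonic heavy chain, rose from 42.4 ± 2.05 to 221 ± 95.3 RPKM (SD, n = 3; log2 change 2.30), a call lost with median-ratio and ribosomal-gene scaling. These genes resemble each other closely, and their single levels are uncertain. The ratio of striated light to striated heavy chain RPKM was 1.26, 1.05 and 1.17 in uninjured muscle and 1.88, 1.72 and 2.35 at day 3 (1.16 ± 0.103 to 1.98 ± 0.324; SD, n = 3; exact two-sided permutation p = 0.10, adjusted 0.167), and the groups did not overlap.

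Smooth muscle and non-muscle heavy chains were fewer and lower. Myh9, a non-muscle heavy chain, was the most abundant and rose most, from 12.1 ± 1.44 to 125 ± 22.2 RPKM (SD, n = 3; log2 change 3.35). Of the 4 genes 2 were called higher and 1 lower, beside 60.5% and 7.96% of all tested genes. The lower gene was Myh14, which fell by 2.19. Of 11 tested genes for the kinases and phosphatase that act on regulatory chains 4 were called higher as deposited (60.5% of all tested genes). Another 3 of this list were called lower (7.96% of all). With median-ratio scaling 0 were higher and 6 lower, and under ribosomal-gene scaling 0 and 8. Mylk2, the skeletal muscle light chain kinase, which phosphorylates Mylpf, read 267, 337 and 277 RPKM in uninjured muscle and 20.7, 36.8 and 5.27 RPKM at day 3, a log2 change of -4.19 and the largest fall of the list. Ppp1r12c, a targeting subunit of myosin phosphatase, rose by 2.28, the largest rise as deposited, while Dapk3, a kinase, lost its call without day 3 replicate 3 (0.95). Mylk, the smooth muscle and non-muscle kinase, went from 3.89 ± 0.222 to 6.70 ± 0.332 RPKM (SD, n = 3; log2 difference 0.77, not called).

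The order of levels changed between the groups. In uninjured muscle Mylpf and Myl1 stood far above the rest, followed by Myl12a and Myl3, then Myl12b, Myl2, Myl9 and Myl6, then Myl4 and last Myl6b. Neighbours in this order overlapped between libraries for Myl12a and Myl3, Myl12b and Myl2, Myl2 and Myl9, and Myl9 and Myl6. At day 3 the order was Mylpf, Myl1, Myl12a, Myl4, Myl6, Myl12b, Myl9, Myl6b, Myl2 and Myl3, and the neighbours from Mylpf down to Myl6 overlapped, as did Myl2 and Myl3. Overlap here sets values of different libraries against each other. Within each day 3 library Myl1 was below Mylpf, with ratios of Myl1 to Mylpf of 0.321, 0.364 and 0.245 in replicates 1 to 3. Together the transcripts used for the 10 members took 0.943% ± 0.0463 of all mapped reads before injury, against 0.247% ± 0.0796 after it (SD, n = 3). The long Myl1 transcript was left out, so the share of the genes as a whole is understated. That transcript held 143166 reads in uninjured replicate 1, beside 135854 for the short one. In day 3 replicate 1 it held 18380 beside 16750.

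Genes of like pattern were found by the root mean square difference of centred log2(RPKM + 0.1) over the 6 libraries, among 8092 genes with a mean of at least 5 RPKM, as a description with no test. Closest to Mylpf were Ttn (0.0573), the giant protein titin of the sarcomere, Jph1 (0.0655) and Apobec2 (0.0713). Myl1 had Asb15 (0.0811), Art1 (0.117) and Casq1 (0.118), the calcium store protein of fast fibres. Myl3 had Klhl33 (0.205), Aqp4 (0.310) and Mb (0.335), which encodes myoglobin, and Myl2 had Gm889 (0.440), Car3 (0.464) and Mybpc1 (0.522), the loosest matches of any member. Myl4 was closest to Ncam1 (0.160), an adhesion molecule of immature muscle, Gatm (0.165) and Cdkn1c (0.183). Myl6b was closest to the embryonic heavy chain Myh3 (0.110), then Pja1 (0.154) and Top1 (0.170). For the remaining members the closest genes were Pros1 (0.0458), Prkcdbp (0.0575) and Tor2a (0.0613) for Myl6, Heatr5a (0.0183), Csnk2a2 (0.0339) and Elk3 (0.0368) for Myl12b, Stau1 (0.0394) and Uckl1 (0.0511) for Myl12a, and Prkaca (0.0504), Cxxc5 (0.0629) and Zgpat (0.0687) for Myl9. Among the members themselves Mylpf and Myl1 were closest to each other (0.340), and Myl12a and Myl9 (0.317).

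Upstream sequence is shown for 2 striated chains that fell, Mylpf and Myl3, and for Myl4, which rose, from the RefSeq promoter table (build GRCm38.p6). Each run of 210 bases on the plus strand ends 40 bases before the annotated start site, at chr7:127211358-127211567, chr9:110763428-110763637 and chr11:104550413-104550622. Capitals mark E-boxes (CANNTG, the motif of MyoD and myogenin and other factors of their class, a palindrome searched on both strands) and CArG boxes (the motif of serum response factor).
Mylpf: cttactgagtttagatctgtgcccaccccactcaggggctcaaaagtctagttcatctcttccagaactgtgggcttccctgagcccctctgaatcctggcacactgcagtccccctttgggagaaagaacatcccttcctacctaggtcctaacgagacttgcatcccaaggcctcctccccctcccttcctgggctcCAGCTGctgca
Myl3: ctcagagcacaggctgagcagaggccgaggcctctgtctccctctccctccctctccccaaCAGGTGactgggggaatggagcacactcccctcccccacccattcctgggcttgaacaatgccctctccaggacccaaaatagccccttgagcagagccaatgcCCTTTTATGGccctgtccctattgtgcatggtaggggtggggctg
Myl4: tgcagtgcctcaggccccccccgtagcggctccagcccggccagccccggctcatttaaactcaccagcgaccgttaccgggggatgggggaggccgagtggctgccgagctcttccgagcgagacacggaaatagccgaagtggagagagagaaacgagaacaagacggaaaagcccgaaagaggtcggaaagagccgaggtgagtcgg
In Mylpf an E-box began 51 bases before the start site. Myl3 had an E-box 189 and a CArG box 85 bases before it. No match was in the Myl4 window. Of the 12 promoters tabulated for the members, each from 250 bases before to 50 after the start, 10 held an E-box, beside 72.3% of all 32851 promoters, 2 held TATAAA (13.6% of all), 3 a CArG box (1.63% of all) and 0 a MEF2 box (3.19% of all). CArG boxes lay in the windows of Myl3, Myl9 and 1 of the 2 starts of Myl6. Several of these start sites lay away from the start of the transcript used for expression. The offset (negative is upstream) was -9702 bases for Myl1 and -8227 and -7762 for the 2 starts of Myl2. It was 374 for Myl12b and 866 for the Myl6 start with the CArG box. Both TATAAA matches lay in windows of Myl1 and Myl2. The counts thus do not describe only the promoters of the transcripts used. Letters that match are a description of the window and no evidence of binding.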

How the data were processed

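RNA-seq libraries of 3 uninjured and 3 day 3 TA muscles were each built from 1 µg of RNA and sequenced in single-end runs of 50 bases. The authors aligned reads with BWA to RefSeq mouse transcripts and deposited RPKM per transcript, not pooled over replicates; CASAVA 1.4 and SAMtools 0.1.19 are named in the submitters' processing notes. The handling of reads that match several transcripts is not given in the sources used here. Of 34302 rows, 96 name no gene (92 ERCC spike-ins, 1.12% ± 0.0717 and 1.51% ± 0.114 of reads) and stayed out of all tests.

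For the 5019 symbols with several transcripts the one of highest mean was used. limma 3.58.1 (lmFit, eBayes with trend, R 4.3.3) was run on log2(RPKM + 0.1) for genes with a mean of at least 0.5 RPKM, so fold changes of low genes are understated. Two-sided exact permutation tests were used for shares and ratios. Values above 0.01 came to whole reads within 0.01, and voom on these reads was an alternative. The fit was tested on simulated data. All members are named; from each other gene list the most abundant, the largest rise and the largest fall are named, and the other genes given were chosen after their values were seen. One gene of like pattern is not reported here. Members and lists were chosen with earlier results of these data known. Replicate numbers do not pair the mice. Alternatives covered the pseudocount, filter, scaling, fit, transcripts and each left-out library. Loci and coding sequences come from GENCODE M21 (GRCm38), promoters from RefSeq. Other steps ran in Python 3.11.15 with Biopython 1.88, pandas 2.3.3, SciPy 1.17.1, NumPy 2.4.6 and matplotlib 3.10.9.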

Additional observations from a re-analysis of the deposited data

How the results depend on the processing

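Of 180 combinations of a member and an alternative, 164 kept the direction and the side of the threshold, 10 lost the call and 6 changed sign. Without the 4 scalings, 136 of 140 were kept, and the exceptions were Myl2 (3) and Mylpf (1). Over the whole table, 3698 genes were called higher and 3358 lower under median-ratio, 3460 and 3561 with quantile, 2302 and 6044 with ribosomal protein and 6952 and 1597 with ERCC scaling. Members called higher were 3 with median-ratio and 1 with ribosomal-gene scaling, and without the filter on low values 2 were called lower. The log2 difference of Myl9 became -0.71 (median-ratio), -0.23 (quantile) and -1.49 (ribosomal protein), that of Myl12a -0.13 (median-ratio) and -0.91 (ribosomal protein), and that of Myl12b -0.066 (ribosomal protein). With transcripts summed the essential to regulatory ratio changed by -0.172, its striated form by -0.138 and the striated essential share by -17.2 percentage points. With near copies added to Myl6, an alternative chosen after seeing the data, the ratio changed by 0.156 and the striated essential share by -41.6 percentage points. Beyond the fewer genes or other totals that each setting uses, the cause was not tested. Leaving out 1 library gave 8694 to 8789 higher and 1058 to 1199 lower genes, 5 members higher and 3 to 4 lower. It gave differences of -28.1 to -16.8 points in the essential and -25.4 to -13.9 in the regulatory share, of -0.0152 to 0.00570 in the essential to regulatory ratio (0.00570 without uninjured replicate 1, 0.00257 without day 3 replicate 2), of -0.0335 to -0.0122 in its striated form and of 0.640 to 0.952 in the light to heavy ratio. Same-numbered mice did not deviate together (r = -0.0588, 0.0918 and 0.0178 over genes), and the fit with the replicate block gave 8743 higher and 1149 lower genes and 5 and 4 members, with no member call changed. Depth limits Myl2 and Myl3 at day 3, down to 22 and 38 reads. The exact permutation test of shares and ratios cannot pass 0.05 with 3 against 3.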
